A study of Mus musculus with 4 samples.

Results

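The genes described here encode regulators of mitochondrial apoptosis (the BCL2 family), caspases with the other components of the cell death machinery, and inflammasome components. The list of 42 genes was fixed by name, with no measured value in its rule, but with earlier results of these data known. It holds 21 BCL2 family genes, 13 caspase and cell death genes and 8 inflammasome genes. Of the 42, 34 had a probe set annotated with that gene as its only symbol, out of 12393 genes so represented on the arrays. Each gene was read from its brightest probe set by mean signal over the 4 arrays.

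Signals came from 4 Affymetrix arrays of mouse dendritic cells (DC) cultured from bone marrow, which take up and present antigen, of strain C57BL/6 in both groups. The groups were NKT-modulated DC, called nkt modulated DC in the labels, and immature DC, with 2 arrays each. NKT cells are T cells that recognise lipids on CD1d. The labels give no age, no contact time and no source of the NKT cells, and the design text speaks of triplicates, whereas 2 arrays per group were analysed here. Nothing says whether the arrays of a group came from separate cultures, so the p-values cover the spread among these arrays alone, and that spread may be technical. RNA was taken from CD11c cells, per the design text.

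In mitochondrial apoptosis, BH3-only proteins neutralise the pro-survival members of the BCL2 family or directly activate BAX and BAK, which permeabilise the outer mitochondrial membrane and release cytochrome c, so that APAF1 and caspase-9 assemble into the apoptosome. Death receptors take another route through FADD and caspase-8, which c-FLIP, the product of Cflar, restrains. Inflammasomes are sensor complexes that activate caspase-1 through the adaptor ASC, the product of Pycard, and mouse caspase-11, the product of Casp4, is activated by cytosolic lipopolysaccharide. In DC these pathways are known for setting cell lifespan and for the release of IL-1 family cytokines.

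The genes did not move as 1 block. The inflammatory caspase genes Casp4 and Casp1 rose in NKT-modulated DC, as did Bcl2l11, Cflar, Bcl2l1 and Casp6, while Casp9, Casp2, Birc5, Naip2 and Pycard fell. Called means an adjusted p under 0.05 in the limma fit on all probe sets. Of 34 genes, 6 (17.6%) rose and 5 (14.7%) fell, against 5.99% higher and 6.90% lower among all genes. Of the 34 genes 3 had a mean signal under 64, against 4229 of all 12393. Probe sets with a mean signal of at least 64 were also normalized, fitted and adjusted alone. In that refit, 11 of 31 members (35.5%) and 25.8% of all such genes were called in either direction. Shares given below for genes with a mean signal of at least 64 come from this refit. The median log2 change of the 34 genes was 0.01, and that of all genes was -0.04.

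**Figure D1:**
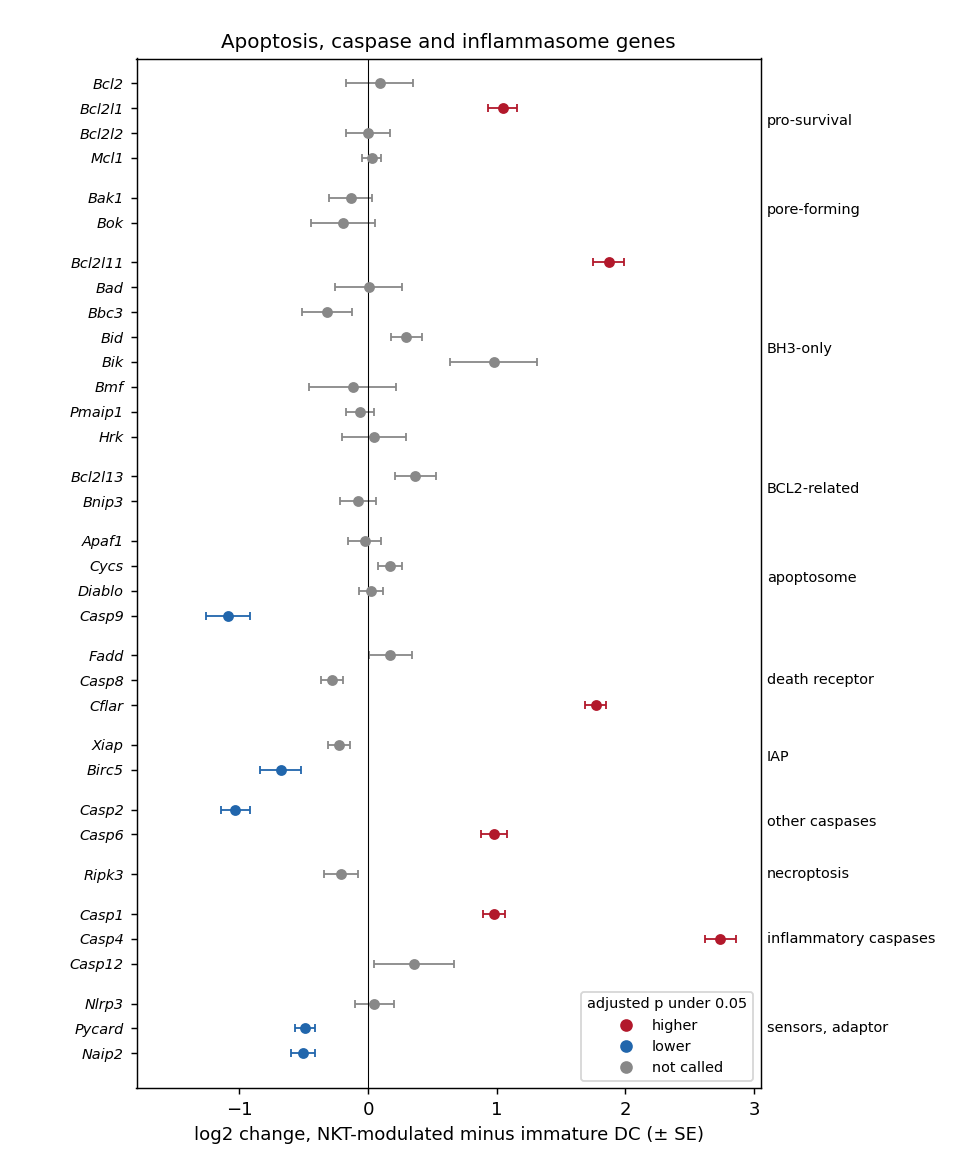
The log2 change (horizontal axis, NKT-modulated minus immature DC, ± SE, n = 2 arrays per group) of the 34 measured genes, ordered by role, with called genes in red (higher) or blue (lower). Casp4, at 2.74, lies farthest right and Casp9, at -1.09, farthest left, while most genes of the BCL2 family lie near 0.

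Some genes are shown by the stretch before their annotated start: 3 neighbours on chromosome 9, and Casp2, which fell and carries an E2F motif. Each is the RefSeq sequence of the 250 bases before the start on build GRCm38.p6, 5′ to 3′ on the gene's strand, which is the plus strand for all of them. Capitals mark motif matches on either strand.
Casp1, chr9:5298267-5298516: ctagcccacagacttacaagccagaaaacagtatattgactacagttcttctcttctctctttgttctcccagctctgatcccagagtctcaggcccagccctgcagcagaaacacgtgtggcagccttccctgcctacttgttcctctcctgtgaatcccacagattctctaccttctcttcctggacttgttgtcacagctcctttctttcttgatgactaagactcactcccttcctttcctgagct
Casp4, chr9:5308599-5308848: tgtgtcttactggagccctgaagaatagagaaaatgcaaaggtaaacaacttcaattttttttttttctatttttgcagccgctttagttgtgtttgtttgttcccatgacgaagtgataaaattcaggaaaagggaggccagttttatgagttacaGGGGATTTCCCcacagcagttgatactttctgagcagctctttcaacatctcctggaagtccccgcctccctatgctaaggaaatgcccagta
Casp12, chr9:5345226-5345475: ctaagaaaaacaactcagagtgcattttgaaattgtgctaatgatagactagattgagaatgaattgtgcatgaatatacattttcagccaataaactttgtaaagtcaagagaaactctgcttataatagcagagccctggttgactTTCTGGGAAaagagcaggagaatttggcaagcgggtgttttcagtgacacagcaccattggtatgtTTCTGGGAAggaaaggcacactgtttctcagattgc
Casp2, chr6:42264735-42264984: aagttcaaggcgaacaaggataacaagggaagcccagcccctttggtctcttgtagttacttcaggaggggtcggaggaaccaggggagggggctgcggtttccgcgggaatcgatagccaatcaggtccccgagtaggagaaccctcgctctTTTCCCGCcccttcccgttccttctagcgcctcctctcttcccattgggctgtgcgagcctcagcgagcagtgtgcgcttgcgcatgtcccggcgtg
The capitals in Casp4 are a pair of overlapping matches to the kB consensus, the motif of NF-kB, which begin 93 and 92 bases before the start, and a second annotated start of Casp4 shares them. The 2 matches in Casp12, at 102 and 36 bases, are to TTCNNNGAA, the GAS motif of STAT factors, and the match in Casp2, at 97 bases, is to TTTCCCGC, an E2F motif.

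Over the 38 members found in the promoter table, with 51 annotated starts, the motifs were sparse. The kB consensus matched a window of 2 of 6 genes that rose (Bcl2l1 and Casp4), 1 of 5 that fell (Birc5) and 2 of 21 that were not called (Bbc3 and Nlrp3), and 3.90% of all 32851 promoters. The GAS motif matched 0 of 6, 0 of 5 and 1 of 21 (Casp12), besides Nod1, which had no probe set, and 7.02% of all promoters. The ISRE core GAAANNGAA, bound by interferon regulatory factors, matched 0 of 6, 0 of 5 and 1 of 21 (Xiap), and 7.13% of all promoters. E2F motifs, TTTGGCGC or TTTCCCGC, matched 0 of 6, 1 of 5 (Casp2) and 1 of 21 (Fadd), and 1.30% of all promoters. A match is a run of letters and no evidence of binding, and genes with several starts had several windows.

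Among inflammatory caspases and their partners, the neighbouring genes Casp4 and Casp1 rose by unlike amounts, and Casp12 was dim and not called. Casp4, which encodes caspase-11, the protease of the noncanonical inflammasome, had signals of 2429 and 2412 in the NKT-modulated arrays, against 321 and 446 in the immature arrays. The groups lay far apart relative to the gap between arrays of a group. Its log2 change was 2.74 ± 0.12 (SE moderated by limma, with n = 2 arrays in each group here and below). The fold was 6.66 (adjusted p = 1.36e-04), and Casp4 ranked 76th of 12393 genes. Casp1, the caspase that cleaves pro-IL-1beta, had signals of 2196 and 2001 in NKT-modulated DC and 1035 and 1224 in immature DC. Both NKT-modulated arrays were above both immature arrays, and the change was 0.98 ± 0.09 (adjusted p = 0.00168). Casp12, a caspase linked to the endoplasmic reticulum in mouse, was dim, with signals of 38.0 and 18.6 in NKT-modulated arrays and 13.5 and 22.5 in immature arrays. These overlapped, and its change was 0.36 ± 0.31 (adjusted p = 0.550). Its other, dimmer probe set had signals of 40.3 and 8.80 in NKT-modulated arrays and 4.96 and 5.35 in immature arrays. There the groups did not overlap, but the change of 0.81 ± 0.38 was not called (adjusted p = 0.260). Casp1, Casp4 and Casp12 are consecutive protein-coding genes in the RefSeq annotation. Gsdmd, the gene of the pore-forming substrate of caspase-1 and caspase-11, had no probe set of its own here.

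The sensor and adaptor genes showed no rise. Pycard, the gene of the adaptor ASC, had signals of 4358 and 4393 in NKT-modulated DC against 6028 and 6083 in immature DC. Arrays of a group agreed closely, and the gene fell by 0.49 ± 0.08 on the log2 scale (adjusted p = 0.0125). Naip2, which encodes a receptor of bacterial type III secretion proteins, gave signals of 708 and 671 in NKT-modulated arrays and 1010 and 1178 in immature arrays. The groups did not overlap, and the gene fell by 0.50 ± 0.09 (adjusted p = 0.0239). It lies next to its paralog Naip5, and its probe set may not separate the paralogs. Nlrp3, the sensor of the best known inflammasome, had overlapping signals of 492 and 392 in NKT-modulated DC and 428 and 566 in immature DC, with a change of 0.05 ± 0.15 (adjusted p = 0.895). Nod1 had no probe set of its own here. Leaving out single arrays touched both falls: Pycard had adjusted p = 0.101 and 0.0656 without NKT-modulated replicate 1 and 2 (range over 13 alternatives 0.00344 to 0.120), and Naip2 had adjusted p between 0.0794 and 0.117 without any 1 of the 4 arrays (range 0.0127 to 0.117).

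Of 6 measured inflammasome genes, 4 were called, 2 in each direction, against 12.9% of all genes called, and their median change was 0.20. Among those with a mean signal of at least 64, 4 of 5 were called, against 25.8% of all such genes. Other inflammasome genes outside the 42, from a list of 25 with 16 measured, were likewise split, with 3 higher and 3 lower (37.5% called, against the same 12.9%) and a median of -0.16. The rises were Il1a by 3.71 ± 0.18 and Il1b by 3.01 ± 0.14, genes of IL-1 family cytokines, and Ninj1, which encodes the protein of plasma membrane rupture, by 0.58 ± 0.11. Gsdme, which encodes a gasdermin cut by caspase-3, fell by 0.92 ± 0.10, Pstpip1, an adaptor gene that binds pyrin, fell by 1.03 ± 0.21, and Naip5 fell by 0.63 ± 0.14. Il18 and Aim2 had changes of -0.51 ± 0.13 and -0.25 ± 0.25 and were not called (adjusted p = 0.0599 and 0.608). Mefv, the gene of pyrin, had a change of 1.06 ± 0.28 and was not called either (adjusted p = 0.0645). Among the 14 genes of this list with a mean signal of at least 64, refitted alone, 4 were higher and 6 lower. That is 71.4% called, against 25.8% of all such genes. Of the 16 measured genes of this list, 7 had a positive change and 9 a negative one.

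**Figure D2:**
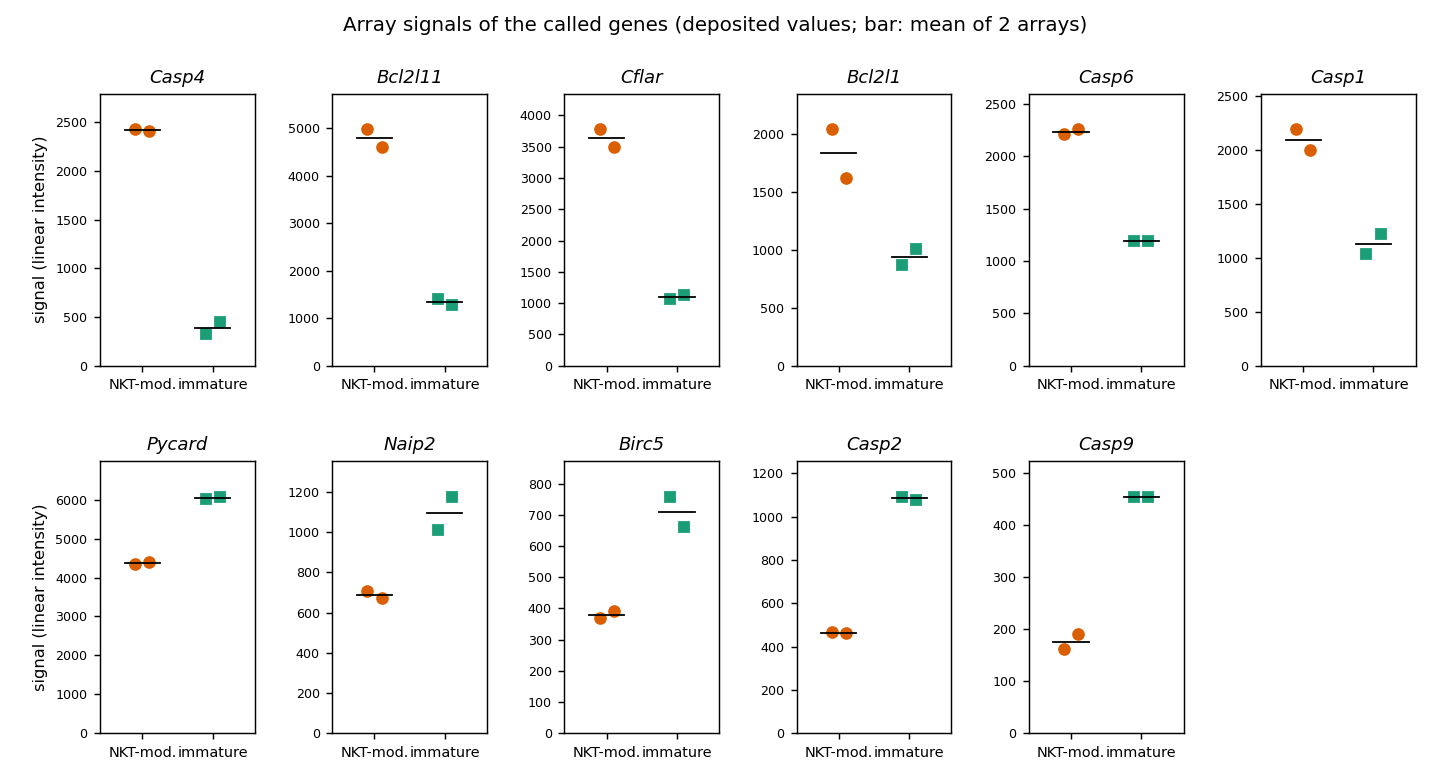
Deposited linear signals (vertical axis, from 0) of the 11 called genes in the NKT-modulated arrays (circles) and the immature arrays (squares), with the mean of 2 arrays as a bar. The groups do not overlap for any of them, and the gap is widest relative to the immature level for Casp4, at 2429 and 2412 against 321 and 446.

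In the BCL2 family, 2 of 16 measured genes rose (12.5%) and 0 fell, against 12.9% of all genes called in either direction. Among genes with a mean signal of at least 64, 2 of 14 (14.3%) were called, against 25.8% of all such genes. The 2 act in opposite ways. Bcl2l11 encodes BIM, a BH3-only protein that triggers apoptosis, and had signals of 4983 and 4606 in the NKT-modulated arrays and 1396 and 1269 in the immature arrays. The groups were clearly apart, and it rose by 1.87 ± 0.12 (a fold of 3.65, adjusted p = 5.91e-04). All 5 of its probe sets were called, with changes of 1.62 to 2.07. Bcl2l1 encodes the pro-survival protein BCL-XL and had signals of 2046 and 1626 in NKT-modulated DC and 874 and 1009 in immature DC. It rose by 1.05 ± 0.12 (adjusted p = 0.00349) on its brightest probe set, of mean signal 1389. However, its 3 dimmer probe sets, with mean signals of 112, 10.6 and 4.82, were not called, with changes of 0.15 to 0.86. With all its probe sets averaged, the change was 0.57 and the call was lost (adjusted p = 0.119, in a range of 7.98e-04 to 0.119 over 13 alternatives).

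The other pro-survival genes showed no call. Mcl1, the gene of a short-lived pro-survival protein, had signals of 9743 and 9410 in NKT-modulated DC and 8934 and 8868 in immature DC. After normalization these overlapped, with a change of 0.03 ± 0.07 (adjusted p = 0.876), and its 5 other probe sets had changes between -0.32 and -0.06, none called. Bcl2, the founding pro-survival gene, had a change of 0.09 ± 0.26, and Bcl2l2, which encodes BCL-W, of 0.00 ± 0.17. The signals of Bcl2 were 115 and 130 in NKT-modulated arrays and 152 and 106 in immature arrays, so the groups overlapped. The A1 genes Bcl2a1a, Bcl2a1b and Bcl2a1d, closely related pro-survival paralogs, had only probe sets annotated with all of them. Of 3 such probe sets, which name none of the genes, the brightest had a change of 0.14 ± 0.08 (adjusted p = 0.338), another was higher by 0.78 ± 0.12 (adjusted p = 0.0104) and the dimmest was not called.

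Of 8 BH3-only genes, Bcl2l11 alone was called, 12.5% against 12.9% of all genes. Bid, the link from caspase-8 to mitochondria, had a change of 0.30 ± 0.12 (adjusted p = 0.200), and Bik, dim at 65.4 and 30.3 in NKT-modulated arrays against 20.8 and 10.9 in immature arrays, one of 0.98 ± 0.34 (adjusted p = 0.135). The arrays of these genes did not overlap between groups, which held for 21 of the 34 members (61.8%) and for 56.3% of all genes. Pmaip1, which encodes NOXA, an antagonist of MCL1, had signals of 3913 and 3946 in NKT-modulated DC and 4278 and 3927 in immature DC, and a change of -0.06 ± 0.11. Bbc3, the gene of PUMA, had a change of -0.32 ± 0.19 (adjusted p = 0.379). Bmf and Hrk, other BH3-only genes, had changes of -0.12 ± 0.34 and 0.04 ± 0.25. For Bad the probe sets disagreed: the brightest had a change of 0.00 ± 0.26, while the other, with signals of 194 and 185 in NKT-modulated arrays against 383 and 401 in immature arrays, was lower by -0.77 ± 0.15 (adjusted p = 0.0243).

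Neither measured pore-forming gene was called. Bak1 and Bok had changes of -0.14 ± 0.17 and -0.19 ± 0.25 (adjusted p = 0.688 and 0.702), and Bax had no probe set of its own here. Among BCL2-related genes, Bcl2l13 and Bnip3, which encode mitochondrial proteins of mitophagy, had changes of 0.37 ± 0.16 (adjusted p = 0.226) and -0.08 ± 0.14 (adjusted p = 0.808). Bnip3l had only probe sets shared with a pseudogene; 2 of those 3 were lower, by -0.57 ± 0.09 and -0.68 ± 0.09, and name neither gene.

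**Figure D3:**
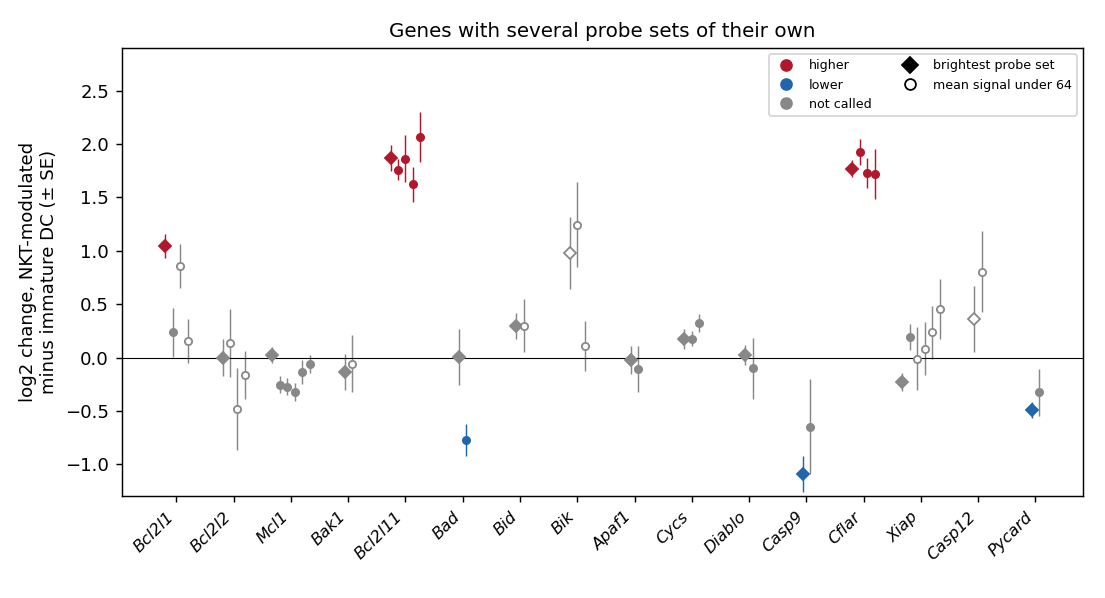
The log2 change (vertical axis, NKT-modulated minus immature DC, ± SE) of every probe set of the 16 genes with several probe sets of their own, with diamonds for the brightest, open symbols for a mean signal under 64, and colours for the call. The 5 probe sets of Bcl2l11 and the 4 of Cflar lie together above 1.6, whereas those of Bcl2l1 spread from 0.15 to 1.05 and those of Bad lie at 0.00 and -0.77.

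Of 12 measured caspase and cell death genes, 2 were higher and 3 lower (41.7% called, against 12.9% of all genes), and the median log2 change was -0.12. All 12 had a mean signal of at least 64, and among all such genes 25.8% were called. In the death receptor branch, Cflar, which encodes the caspase-8 inhibitor c-FLIP, had signals of 3780 and 3492 in NKT-modulated DC against 1065 and 1134 in immature DC. It rose by 1.77 ± 0.08 (a fold of 3.41, adjusted p = 1.64e-04), and all 4 of its probe sets were called, with changes of 1.72 to 1.93. Casp8, the next protein-coding gene after Cflar in the annotation, had signals of 1925 and 1920.5 in NKT-modulated arrays and 2392 and 2452 in immature arrays. The arrays did not overlap, but its change of -0.28 ± 0.09 did not pass (adjusted p = 0.0998). Fadd, the adaptor gene of death receptors, had a change of 0.17 ± 0.17 (adjusted p = 0.592).

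In the apoptosome group 1 of 4 genes, Casp9, was called, against 12.9% of all genes. All 4 had a mean signal of at least 64, and 25.8% of all such genes were called in their refit. Casp9, the gene of the initiator caspase of the mitochondrial route, had signals of 161 and 190.3 in NKT-modulated DC and 455 and 454 in immature DC. It fell by 1.09 ± 0.17 (a fold of 0.470, adjusted p = 0.0120), with its other, dimmer probe set at -0.65 ± 0.45. The call was lost with both probe sets averaged (change -0.87, adjusted p = 0.0960), without immature replicate 1 (adjusted p = 0.0836) and without NKT-modulated replicate 1 (adjusted p = 0.0609), in a range of 0.00242 to 0.0960 over its 13 alternatives. Cycs, the gene of cytochrome c, was bright, at 13159 and 12062 in NKT-modulated arrays and 9882 and 10900.1 in immature arrays, and had a change of 0.17 ± 0.09 (adjusted p = 0.333). Apaf1, which encodes the scaffold of the apoptosome, and Diablo, which encodes the IAP antagonist SMAC, had changes of -0.03 ± 0.13 and 0.02 ± 0.09.

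The remaining caspases went opposite ways. Casp2, a caspase gene linked to DNA damage and mitotic errors, had signals of 467 and 463 in NKT-modulated DC against 1093 and 1075 in immature DC. It fell by 1.03 ± 0.11 (a fold of 0.489, adjusted p = 0.00349). Casp6, an executioner caspase gene, had signals of 2210 and 2257 in NKT-modulated DC against 1193 and 1187 in immature DC. It rose by 0.98 ± 0.10 (a fold of 1.97, adjusted p = 0.00272). In both genes the arrays of a group lay within a few percent of each other, and leaving out any 1 array ended neither call. The necroptosis kinase gene Ripk3 had a change of -0.21 ± 0.13 (adjusted p = 0.399), and Mlkl, its effector, had no probe set of its own here.

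Of the inhibitor of apoptosis genes, Birc5 fell and Xiap was not called. Birc5 encodes survivin, which also works in the chromosomal passenger complex of dividing cells, and had signals of 369 and 391 in NKT-modulated arrays against 759 and 662 in immature arrays. It fell by 0.68 ± 0.16 (adjusted p = 0.0474), close to the threshold. Without immature replicate 1, NKT-modulated replicate 1 and NKT-modulated replicate 2 its adjusted p was 0.166, 0.182 and 0.124, and it ranged from 0.0118 to 0.182 over 13 alternatives. Proliferation markers were lower in the same arrays: 9 of 11 fell, among them Ccnb2 by 0.96 ± 0.11 and Cdk1 by 0.83 ± 0.11, with summed signals of 9657 and 9560 in NKT-modulated DC against 12922 and 14091 in immature DC. Mki67 was not called (0.19 ± 0.10). Among all genes, 6.90% fell. The part of the proliferation markers in the change of Birc5 was not tested. Xiap, a direct caspase inhibitor, had a change of -0.23 ± 0.08 (adjusted p = 0.155), and its 6 probe sets ranged from -0.23 to 0.45, none called.

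Other apoptosis genes outside the 42, from a list of 37 with 31 measured, gave 5 higher and 2 lower, with a median of 0.03. The share called was 22.6%, against 12.9% of all genes. Among those with a mean signal of at least 64, 7 of 29 were called (24.1%), against 25.8% of all such genes. The rises included Fasl, the ligand gene of the death receptor Fas, by 3.06 ± 0.26, Fas itself by 1.18 ± 0.16, and the IAP genes Birc3 and Birc2 by 0.95 ± 0.09 and 0.83 ± 0.09. Dapk1, a death-associated kinase gene, fell by 1.32 ± 0.14, and Casp8ap2, whose product binds caspase-8, fell by 0.50 ± 0.10. The receptor and adaptor genes Tnfrsf1a and Tradd had changes of 0.12 ± 0.13 and -0.11 ± 0.14 and were not called. Over both outside lists, 8 of 47 genes rose and 5 fell, a total of 27.7%, against 12.9% of all genes. Among genes with a mean signal of at least 64, refitted alone, 9 of 43 rose and 8 fell (39.5%), against 25.8% of all such genes. In that refit 10 of 14 genes of the inflammasome list were called, 4 higher and 6 lower (71.4%).

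**Figure D4:**
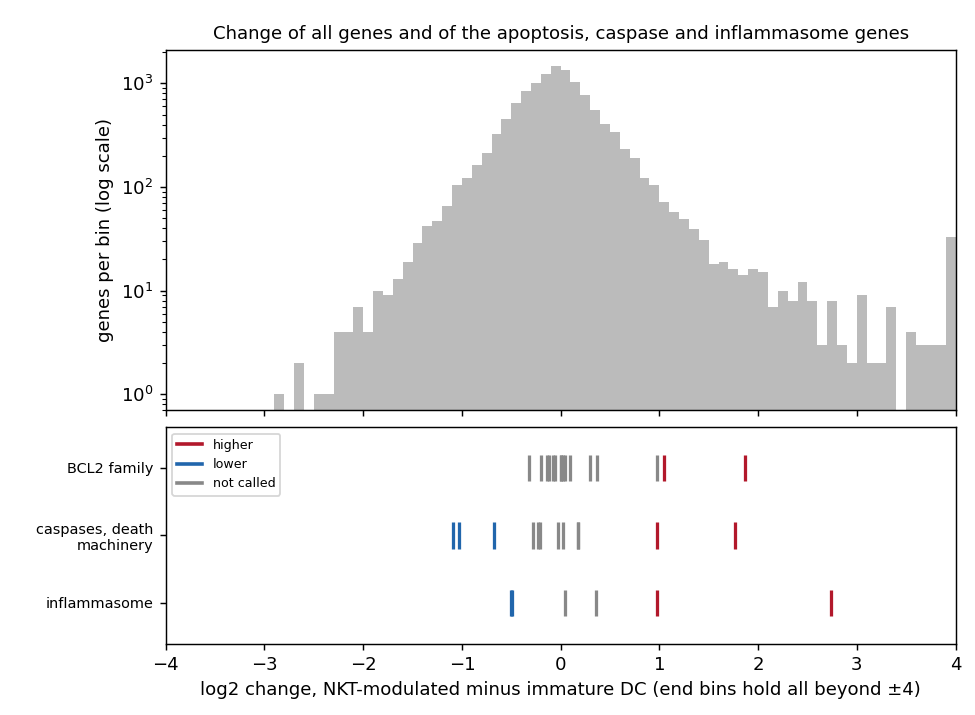
Upper panel, the number of genes (log scale) by log2 change, NKT-modulated minus immature DC, in bins of 0.1 for all 12393 genes, with the 31 genes above 4 pooled in the last bin; lower panel, the changes of the 34 measured genes as ticks, by family and call. The BCL2 family clusters near 0 apart from Bcl2l11 at 1.87, Bcl2l1 at 1.05 and the uncalled Bik at 0.98, while caspase and inflammasome genes spread to both sides.

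Transcripts of T lineage cells were higher in the arrays in which these genes moved. Among all genes, 5.99% rose and 6.90% fell, the background of every marker count given here. Of 17 measured T and NKT cell markers, 9 rose and 0 fell, with Cd3g at 5.26 ± 0.20 and Gata3 at 4.72 ± 0.19. The other 8 were not called, among them the NKT cell marker Zbtb16, at 0.13 ± 0.29 (adjusted p = 0.839). The summed signal of the 17 markers was 6971 and 5252 in NKT-modulated DC and 1225 and 1193 in immature DC. The part of T lineage RNA in the rises of Casp4, Casp1, Casp6, Bcl2l11, Cflar and Bcl2l1, and in that of Fasl, was not tested. The design text names CD11c cells as the RNA source, and their purity was not tested here. In bulk RNA of this kind, fewer cells of a type and less RNA per cell cannot be told apart. Of 9 NK cell markers, 3 rose and 1 fell, among them Il2rb by 4.14 ± 0.23 and Klrd1 with a fall of 1.91 ± 0.16. Their summed signal was 1093 and 985 in NKT-modulated DC against 876 and 928 in immature DC, and the defining marker Ncr1 was near 0, at 4.26 and 4.06 against 3.61 and 3.46. The other rises were those of Nkg7, by 2.42 ± 0.23, and Gzma, by 1.69 ± 0.26, genes of cytotoxic granules in NK and T cells. Which cells gave these transcripts was not tested. Of 6 B cell markers, 1 rose (Cd79b), with sums of 516 and 439 in NKT-modulated DC and 254 and 261 in immature DC, and Cd79a was at 25.1 and 9.09 against 10.4 and 23.8. Of 8 neutrophil markers, 2 rose (Ngp and S100a8), with sums of 1681 and 1530 in NKT-modulated DC and 980 and 1219 in immature DC. DC markers were bright in both groups. Itgax, the CD11c gene, had signals of 5253 and 4643 in NKT-modulated DC against 5442 and 5537 in immature DC. Of 9 DC markers, 1 rose (Cd86) and 1 fell (Itgam), against 12.9% of all genes called in either direction. Among genes with a mean signal of at least 64, refitted alone, 25.8% were called.

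Leaving out any 1 array kept all 6 rises called, and between 1 and 4 of the 5 falls.

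**Figure D5:**
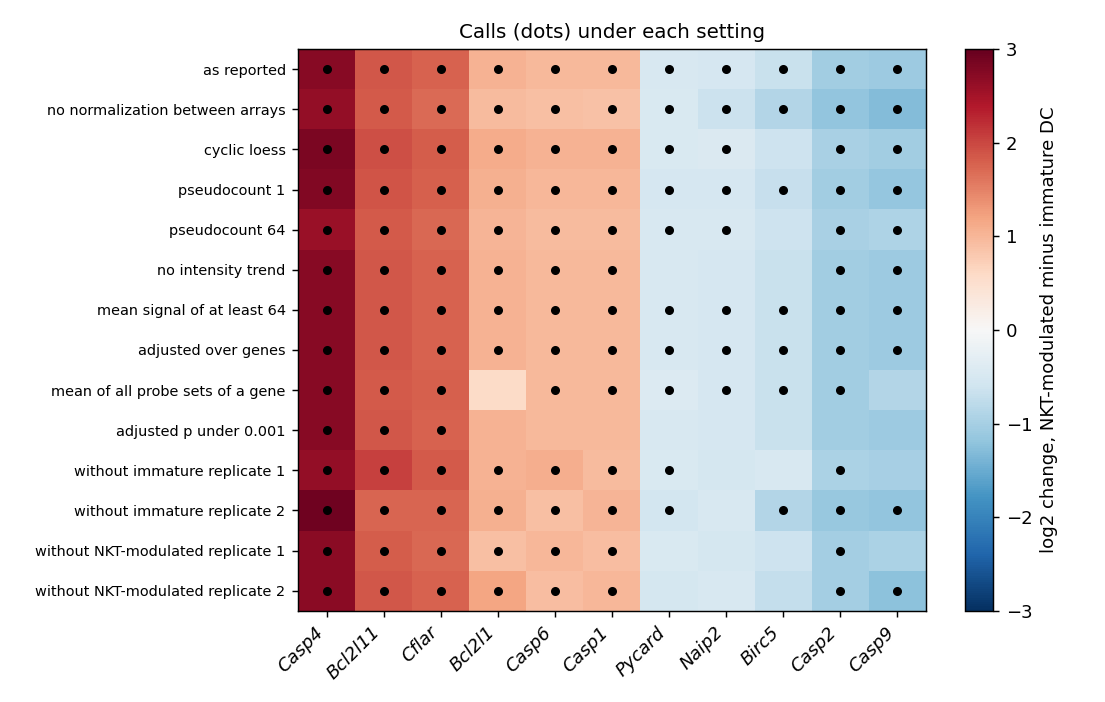
The log2 change (colour, NKT-modulated minus immature DC) of the 11 called genes (columns) as reported and under 13 alternatives (rows), with a dot where the gene was called. Casp4, Bcl2l11 and Cflar carry a dot in every row, and dots are missing most often for Birc5 (7 alternatives) and Naip2 (6 alternatives).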

How the data were processed

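The deposited values are linear intensities, 1 per probe set and array; images were analysed with GCOS, per the submitters' processing notes. How signals were summarised and scaled, and with which software version, is not given in the sources used here. Design text and labels disagree on 1 or 2 amplification cycles. The platform annotation given for the table is of a smaller array than the design text names, so a gene with no probe set here may have one on the larger array. Of 22690 probe sets, 64 control probe sets were left out and 22626 tested, with no filter on dim ones. Median signals were 136 and 129 in NKT-modulated arrays and 146 and 158 in immature arrays; Pearson correlations across probe sets were 0.985 and 0.987 within groups and 0.960 to 0.965 between them.

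Signals were turned into log2(signal + 16), which understates changes of dim genes, quantile normalized, and tested with limma 3.58.1 in R 4.3.3 (intensity trend, two-sided; 2 residual and 4.13 prior degrees of freedom), with Benjamini-Hochberg adjustment over all 22626 probe sets. Printed signals are the deposited intensities before normalization; changes, errors and overlap are on the normalized scale. The platform annotation gave 1 symbol to 20380 probe sets, several to 691 and none to 1555. Errors after ±, in text and figures, are limma's moderated standard errors, whose variance draws on probe sets of similar signal. Having 2 arrays a group limits precision.

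Members, 8 gene lists (2 of pathway genes, 6 of markers) and tests were chosen with earlier results of these data known. All measured members are named; of the other lists, up to 4 called genes per direction (markers, up to 2) with the smallest p. Genes beyond that (Il18, Aim2, Mefv, Tnfrsf1a, Tradd, Mki67, Zbtb16, Ncr1, Nkg7, Gzma, Cd79a, Itgax) and the motifs were chosen after values were seen. Promoters are RefSeq's, matched by symbol. Alternatives covered normalization, pseudocount, variance model, dim probe sets, unit of adjustment, probe set choice, threshold and each array left out.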

Additional observations from a re-analysis of the deposited data

How the results depend on the processing

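Casp4, Bcl2l11 and Cflar kept their call under all 13 alternatives, and the other 8 called genes lost it under at least 1. Of 439 member values under alternatives, 413 kept their side of the threshold and 26 lost a call; 33, of 15 uncalled genes and 0 called ones, had the opposite sign. Without the intensity trend, 6 members were higher and 2 lower, 4 other pathway genes were higher and 2 lower, and 384 of all genes were higher and 272 lower. At an adjusted p under 0.001, the level in the design text, these counts were 3 and 0, 2 and 0, and 131 and 22. No normalization, a mean signal of at least 64 and the mean of all probe sets of a gene each gave 8 other pathway genes lower. Leaving out 1 array (which leaves an arm of 1, assumed to vary like the other) gave 6 members higher each time and 1 to 4 lower, 6 to 8 other pathway genes higher and 2 to 3 lower, and 397 to 510 of all genes higher and 305 to 406 lower. By array, 2 members were lower without immature replicate 1, 4 without immature replicate 2, 1 without NKT-modulated replicate 1 and 2 without NKT-modulated replicate 2. The cause of these differences was not tested. The share of calls that were higher was 46.5% as reported, 35.2% without normalization, where the median change of all genes was -0.12, and 54.0% after cyclic loess; for the members it was 54.5%, 54.5% and 60.0%. No paired analysis was possible because the labels give the groups no shared replicate numbers. Dim genes such as Bik, Bmf and Casp12, with mean signals under 64, are limited by signal.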
